A study of Homo sapiens with 18 samples.

Results

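Growth arrest and damage response genes were followed in SW620 cells, a human colon cancer line, by RNAseq. They are 10 genes chosen by symbol: GADD45A, GADD45B and GADD45G, the cyclin-dependent kinase (CDK) inhibitors CDKN1A and CDKN1B, the antiproliferative BTG/TOB genes BTG1, BTG2 and TOB1, and MDM2 and SESN1. All 10 are among the 26485 genes of the count table. A low-count filter, CPM (counts scaled to 1e6 mapped reads) above 1 in at least 3 libraries, left 12832 genes to test, and 9 of the 10 genes passed it. The exception was GADD45G.

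Cells had been transfected with a scrambled siRNA (scramble) or with siRNA against the mitochondrial protease LONP1 (siLonp1). Each was then kept at 37 °C (Ctrl), exposed to 42 °C for 1 h (HS), or exposed to 42 °C for 1 h and returned to 37 °C for 1 h (HS+REC). The 6 groups had 3 libraries each, 18 in all, which the methods call independent biological replicates. The study asked how LONP1 silencing alters the heat shock response. Every library came from the same cell line, and no group was left untransfected. The methods name more than 1 LONP1 siRNA. Which were used for sequencing, alone or together, is not given in the sources used here.

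Library totals ran from 30815860 to 47279297 counts. LONP1, the silenced gene (chr19:5691834-5720572 on hg38), had 223, 225 and 215 CPM in Ctrl scramble against 19.4, 22.5 and 19.5 CPM in Ctrl siLonp1. In HS it had 219, 227 and 197 CPM in scramble against 11.8, 11.5 and 11.8 CPM. In HS+REC it had 225, 197 and 233 CPM against 27.1, 25.6 and 28.9 CPM, so scramble and siLonp1 libraries were far apart in every condition. Of 8 colon epithelial markers, KRT8 (4925 CPM in Ctrl scramble), KRT18 (2738 CPM), EPCAM (379 CPM) and VIL1 (348 CPM) were high, KRT20 was at 0.472 CPM and CDX1 had no count in any library. KRT20 passed the filter on low counts through 3 siLonp1 libraries only (at most 0.695 CPM in scramble and 1.25 CPM in siLonp1), so no change is read from it. With siLonp1, 2 of the other 6 tested markers fell past the FDR limit in Ctrl, 3 rose and 2 fell in HS, and 3 fell in HS+REC. CDH17 fell by 3.12, 3.41 and 3.11 on the log2 scale in Ctrl, HS and HS+REC, and CDX2 fell by 0.90, 1.38 and 1.07. Their part in the results below was not tested. Of 9 markers of other cell types, PTPRC and COL1A2 were at 0 CPM in Ctrl scramble and CD3E at 0.00701 CPM. Their summed level was 22.0 to 24.9 CPM in Ctrl scramble, 27.9 to 35.5 CPM in HS scramble and 42.7 to 43.9 CPM in HS+REC scramble. In siLonp1 it was 25.0 to 27.5 CPM, 30.2 to 35.9 CPM and 45.9 to 49.4 CPM. COL1A1, a collagen gene, made up most of that rise (9.21, 17.02 and 30.2 CPM on average in scramble), and its part in the results below was not tested. In bulk libraries, fewer cells with a transcript and less transcript per cell cannot be told apart.

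Cells that meet damage or stress can pause division, and much of that pause is carried by a small set of inhibitor proteins. p21 (CDKN1A) and p27 (CDKN1B) bind cyclin-CDK complexes and block entry into S phase. GADD45 proteins are small stress-induced adaptors that activate the MAP kinase kinase kinase MTK1 and hold cells at G2/M, while BTG and TOB proteins bring the CCR4-NOT deadenylase to mRNAs and slow proliferation. MDM2 is a ubiquitin ligase, and SESN1 is a sestrin that restrains mTORC1 signalling.

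The promoters of 6 of the genes are shown, as the 250 bases before the RefSeq transcription start (build GRCh38.p14), 5′ to 3′ on the strand of the gene. They set GADD45B beside GADD45G, CDKN1A beside CDKN1B and BTG1 beside BTG2, while GADD45A had no RefSeq window to show. Capitals mark every match, on either strand, to the CCAAT box, to the TATA box spelled as TATAAA, to the E-box spelled as CACGTG, or to the GC box spelled as GGGCGG. The windows are chr19:2475877-2476126 for GADD45B, chr9:89604762-89605011 for GADD45G, chr6:36678464-36678713 for CDKN1A, chr12:12717118-12717367 for CDKN1B, chr12:92145847-92146096 on the minus strand for BTG1 and chr1:203305269-203305518 for BTG2.
GADD45B: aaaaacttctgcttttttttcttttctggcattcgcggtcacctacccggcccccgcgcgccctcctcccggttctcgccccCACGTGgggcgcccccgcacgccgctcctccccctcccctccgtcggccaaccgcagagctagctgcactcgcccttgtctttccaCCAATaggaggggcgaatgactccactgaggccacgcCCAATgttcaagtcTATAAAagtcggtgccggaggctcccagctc
GADD45G: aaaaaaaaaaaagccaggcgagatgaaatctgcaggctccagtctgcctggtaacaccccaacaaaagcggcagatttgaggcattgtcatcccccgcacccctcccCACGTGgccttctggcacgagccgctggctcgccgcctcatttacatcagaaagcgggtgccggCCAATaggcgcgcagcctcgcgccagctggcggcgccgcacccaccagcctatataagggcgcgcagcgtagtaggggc
CDKN1A: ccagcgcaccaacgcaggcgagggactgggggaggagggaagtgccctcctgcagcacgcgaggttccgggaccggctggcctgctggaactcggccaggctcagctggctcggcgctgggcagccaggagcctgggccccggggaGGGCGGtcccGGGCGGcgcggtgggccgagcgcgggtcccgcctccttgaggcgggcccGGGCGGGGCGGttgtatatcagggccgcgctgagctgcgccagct
CDKN1B: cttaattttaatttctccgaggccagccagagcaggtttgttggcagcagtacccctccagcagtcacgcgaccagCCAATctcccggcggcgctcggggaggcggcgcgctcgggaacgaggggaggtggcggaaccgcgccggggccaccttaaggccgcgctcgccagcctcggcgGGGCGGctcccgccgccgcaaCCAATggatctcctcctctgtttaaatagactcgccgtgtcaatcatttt
BTG1: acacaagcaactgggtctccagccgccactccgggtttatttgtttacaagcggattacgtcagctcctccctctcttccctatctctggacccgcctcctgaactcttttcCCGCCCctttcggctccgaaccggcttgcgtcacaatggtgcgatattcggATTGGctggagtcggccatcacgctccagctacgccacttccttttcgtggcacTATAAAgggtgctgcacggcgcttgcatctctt
BTG2: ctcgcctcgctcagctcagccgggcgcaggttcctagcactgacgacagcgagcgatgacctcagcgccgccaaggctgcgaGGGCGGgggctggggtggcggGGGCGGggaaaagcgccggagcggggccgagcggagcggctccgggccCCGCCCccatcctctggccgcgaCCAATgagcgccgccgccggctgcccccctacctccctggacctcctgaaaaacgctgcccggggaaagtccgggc

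RefSeq windows were matched for 9 of the 10 genes, in 15 windows, and GADD45A had none. MDM2 had 4 windows, SESN1 3 and TOB1 2, so shares are given over genes, each counted once if any of its windows held the letters, beside the same share of all 27305 genes with a window. A CCAAT box lay in 8 of the 9 genes (12 of the 15 windows), against 37% of genes (32% of 35116 windows), and CDKN1A was the gene without one. A GC box lay in 7 of the 9, against 46.2%, with 4 matches in CDKN1A, of which the last 2 overlap by 1 base. TATAAA occurred in GADD45B at position -31 from the start and in BTG1 at -33, against 13% of genes. The E-box CACGTG occurred in GADD45B at -168 and GADD45G at -143, against 7.73%. The letters GAANNTTC, a pair of heat shock element units (7.05% of genes), and their longer form with a further GAA unit after 2 free bases (0.557%) were in no window of the 9 genes, nor was the cyclic AMP response element TGACGTCA (2.03%). The AP-1 letters TGACTCA were in 1 of the 9, MDM2, against 5.19%. Such matches describe these windows only.

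Per kilobase of transcript the genes covered a wide range of levels at 37 °C. GADD45B was the highest at 46.7 ± 3.21 CPM per kb (SD, n = 3) in Ctrl scramble, followed by GADD45A at 32.3 ± 1.70 CPM per kb and TOB1 at 21.0 ± 1.45 CPM per kb. BTG1 stood at 12.2 ± 0.184 CPM per kb, CDKN1B at 9.86 ± 0.0875 CPM per kb and MDM2 at 9.77 ± 0.406 CPM per kb. CDKN1B and MDM2 differed by less than the spread of MDM2. BTG2 at 4.15 ± 0.414 CPM per kb, CDKN1A at 2.26 ± 0.0495 CPM per kb and SESN1 at 1.19 ± 0.0943 CPM per kb were lower, and GADD45G was nearly silent at 0.148 ± 0.129 CPM per kb. In siLonp1 cells CDKN1A stood at 10.6 ± 0.781 CPM per kb in HS and 13.0 ± 2.30 CPM per kb in HS+REC.

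**Figure D1:**
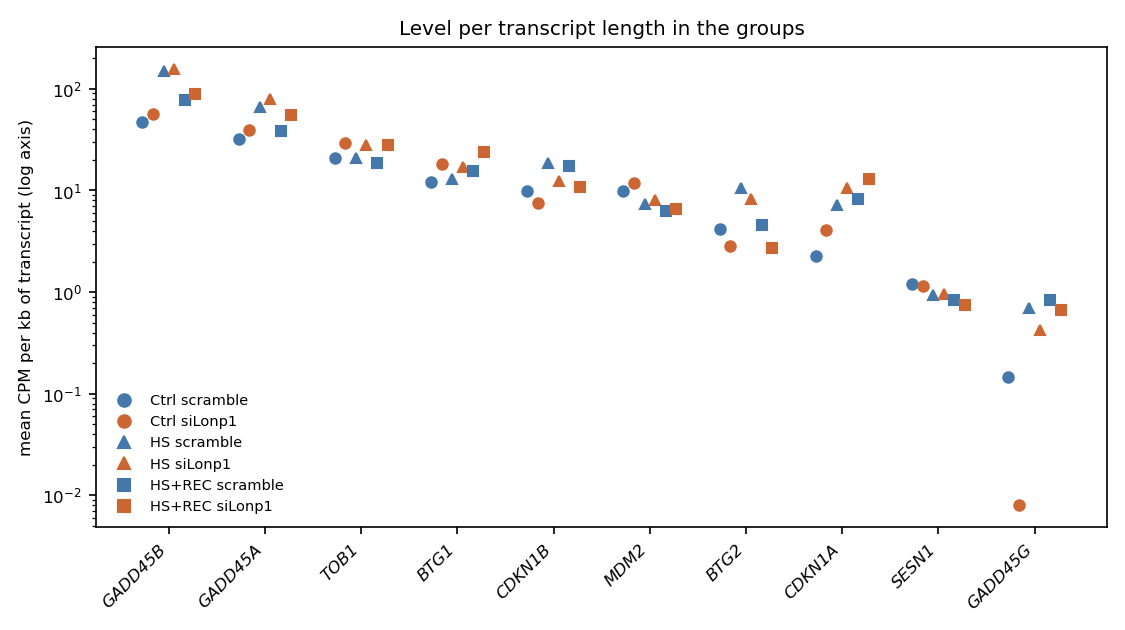
Mean CPM per kilobase of transcript (log axis) of the 10 genes, with 1 symbol for each of the 6 groups. GADD45B is highest at 46.7 CPM per kb in Ctrl scramble and GADD45G lowest at 0.148 CPM per kb, and the groups of CDKN1A lie far more widely spread than those of TOB1.

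Heat shock raised 4 of the 9 tested genes past both limits in scramble cells: GADD45B, CDKN1A, BTG2 and GADD45A, by 2.07- to 3.23-fold. A gene was called when its false discovery rate (FDR) was at most 0.05 in edgeR's quasi-likelihood test, with Benjamini-Hochberg adjustment over all 12832 genes, and its fold change was above 2. The share of all tested genes called as raised in this comparison was 2.94%. At an FDR of 0.05 and any fold change, 7 of the 9 passed, 5 raised and 2 lowered, against 36.0% of all genes, 18.6% raised and 17.3% lowered. In siLonp1 cells 3 of the 9 were called as raised, against 3.42% of all genes, and GADD45A stood just under the 2-fold limit, at 1.00 on the log2 scale. There 6 of the 9 passed the FDR limit, 5 raised and 1 lowered, against 42.2% of all genes, 20.2% raised and 22.1% lowered. The HS and HS+REC effects of each arm were taken against the same Ctrl libraries.

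After 1 h of recovery the picture was narrower. CDKN1A alone was called against Ctrl in each arm, where 3.78% of all genes in scramble and 4.51% in siLonp1 were called as raised. Past the FDR limit at any fold change were 7 of the 9 in each arm, 5 raised and 2 lowered. The shares over all genes were 42.3% in scramble, 21.8% raised and 20.5% lowered, and 51.2% in siLonp1, 24.6% raised and 26.6% lowered. Compared directly with HS, BTG2 alone was called as lowered in HS+REC in each arm, against 0.842% of all genes in scramble and 0.740% in siLonp1. Past the FDR limit in that comparison were 5 of the 9 in scramble, 1 raised and 4 lowered, against 26.8% of all genes, 14.2% raised and 12.7% lowered. In siLonp1 they were 8 of the 9, 2 raised and 6 lowered, against 31.9% of all genes, 16.3% raised and 15.6% lowered. Without HS+REC siLonp1 replicate 2 the 8 became 5. Over all genes, scaling by library size only lowered the raised share of those past the FDR limit from 51.5% to 34.9% for HS+REC in scramble and from 48% to 35.1% in siLonp1, and from 52.7% to 36.3% for HS+REC against HS in scramble. GADD45A, GADD45B and BTG2 were thus high at the end of heat and lower 1 h later, CDKN1A and CDKN1B stayed high, and MDM2 and SESN1 fell, while BTG1 and TOB1 followed none of these courses.

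**Figure D2:**
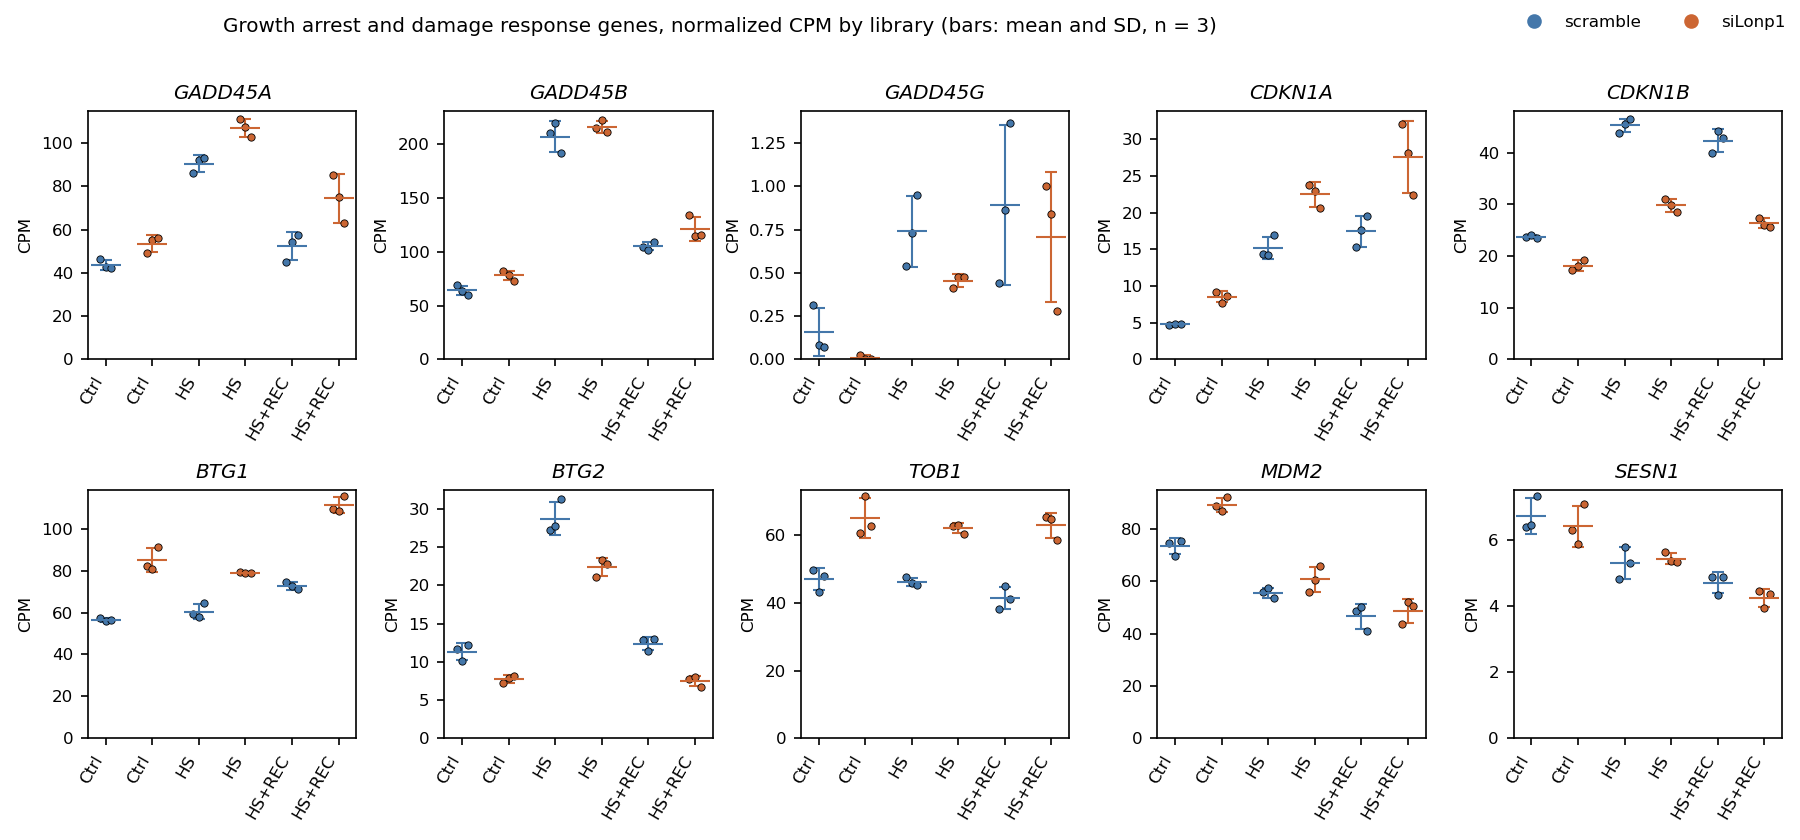
CPM of each of the 10 genes in every library (points), with the mean and SD of each group (bars, n = 3), for scramble and siLonp1 in Ctrl, HS and HS+REC. GADD45A, GADD45B and BTG2 peak in HS, CDKN1A stays high in HS+REC, and MDM2 and SESN1 decline from Ctrl to HS+REC.

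GADD45B (chr19:2476122-2478259, plus strand, 4 exons on hg38) and CDKN1A had the largest HS effects of the 9 in scramble cells, and the values of the 2 differed by less than either standard error. In scramble the levels of GADD45B were 68.7, 63.3 and 59.99 CPM in Ctrl, 209.7, 219 and 191 CPM in HS, and 105, 102 and 109 CPM in HS+REC. The 3 conditions did not overlap, and HS+REC lay between Ctrl and HS. Absence of overlap was common over all tested genes. In scramble it held for 50.2% in HS against Ctrl, 51.7% in HS+REC against Ctrl and 34.7% in HS+REC against HS. In siLonp1 these shares were 54.2%, 55.4% and 40.2%. HS raised GADD45B by 1.69 on the log2 scale (standard error, SE, 0.07, edgeR Benjamini-Hochberg adjusted p = 4.76e-15), and 1.14% of all genes changed by as much in either direction. HS+REC still stood 0.72 above Ctrl (edgeR Benjamini-Hochberg adjusted p = 1.26e-08), and 0.97 below HS (edgeR Benjamini-Hochberg adjusted p = 2.15e-10). That fall passed 2-fold without HS scramble replicate 3 or HS+REC scramble replicate 3, so that 2 genes in place of 1 were called as lowered.

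In siLonp1 cells GADD45B had 82.0, 78.6 and 73.1 CPM in Ctrl, 214, 222 and 211 CPM in HS, and 134, 115 and 115 CPM in HS+REC. The order of the conditions was that of scramble, without overlap. HS raised it by 1.47 (SE 0.07), and HS+REC stood 0.64 above Ctrl and 0.83 below HS on the log2 scale, all past the FDR limit.

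GADD45A (chr1:67685201-67688334, plus strand, 4 exons), a close relative of GADD45B, followed the same course with a smaller rise. In scramble it had 46.4, 42.6 and 42.2 CPM in Ctrl, 86.2, 92.3 and 93.0 CPM in HS, and 45.02, 54.4 and 57.7 CPM in HS+REC. The HS libraries were all above the others, while HS+REC replicate 1 lay inside the Ctrl range. HS raised it by 1.05 on the log2 scale (SE 0.09, edgeR Benjamini-Hochberg adjusted p = 3.51e-09), and it fell by 0.79 from HS to HS+REC (edgeR Benjamini-Hochberg adjusted p = 5.21e-07). Against Ctrl, HS+REC was 0.26 higher (SE 0.09, edgeR Benjamini-Hochberg adjusted p = 0.0266). That call was lost in 4 of the 6 fits that left out 1 library, without Ctrl scramble replicate 2 or 3 or HS+REC scramble replicate 2 or 3, at 0.19 to 0.24, and with scaling by library size only (0.18).

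In siLonp1 cells GADD45A had 49.2, 55.1 and 56.2 CPM in Ctrl, 111, 107 and 103 CPM in HS, and 85.4, 75.3 and 62.9 CPM in HS+REC, with no overlap between conditions. HS raised it by 1.00 (SE 0.09, edgeR Benjamini-Hochberg adjusted p = 4.86e-09). HS+REC was 0.48 above Ctrl and 0.52 below HS on the log2 scale, both past the FDR limit. The HS+REC siLonp1 libraries were spread more widely than those of Ctrl, with an SD of 11.3 CPM against 3.796 CPM.

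GADD45G (chr9:89605012-89606555, plus strand, 4 exons), the third GADD45 gene, was counted in few reads. Ctrl scramble had 13, 4 and 3 reads, HS scramble 24, 33 and 30 reads, and HS+REC scramble 19, 35 and 64 reads. In siLonp1 there were 1, 0 and 0 reads in Ctrl, 16, 18 and 19 reads in HS, and 42, 33 and 11 reads in HS+REC. Every heated library had more reads than every Ctrl library of its arm. Pooled over libraries and corrected for depth, HS over Ctrl was 4.59 in scramble (95% counting interval 2.80 to 7.88) and 52.3 in siLonp1 (8.98 to 2100). The siLonp1 ratio rests on 1 read in Ctrl. HS+REC over Ctrl was 5.56 in scramble (3.44 to 9.44) and 80.3 in siLonp1 (14 to 3210). These intervals cover counting error only. In Ctrl scramble 13 of the 20 reads came from replicate 1, and without that library the scramble ratios were 8.96 (4.17 to 23) for HS and 10.9 (5.11 to 27.6) for HS+REC. Without Ctrl siLonp1 replicate 2 or 3 the siLonp1 ratios were 34.5 and 35.2 for HS and 53 and 54 for HS+REC. Without replicate 1, which held the only read, the ratios had no finite value, with lower 95% bounds of 9.12 for HS and 14.2 for HS+REC. Without the low-count filter the test covered 20745 genes, and GADD45G passed the FDR limit in all 4 comparisons, for instance at adjusted p = 1.32e-06 for HS in scramble (edgeR quasi-likelihood test, Benjamini-Hochberg). Between HS and HS+REC it did not pass in either arm (edgeR Benjamini-Hochberg adjusted p = 0.597 and 0.20), but in siLonp1 it passed without HS+REC siLonp1 replicate 3 (0.999 on the log2 scale, edgeR Benjamini-Hochberg adjusted p = 0.0132).

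CDKN1A (chr6:36676460-36687337, plus strand, 3 exons), which encodes p21, changed most in HS+REC among the 9 tested genes. Ctrl scramble had 4.67, 4.80 and 4.88 CPM, HS scramble 14.4, 14.3 and 16.97 CPM, and HS+REC scramble 15.3, 17.6 and 19.6 CPM. Both heated groups lay far above Ctrl and overlapped each other. HS raised CDKN1A by 1.67 on the log2 scale (SE 0.12, edgeR Benjamini-Hochberg adjusted p = 1.99e-10), or 3.17-fold. HS+REC stood 1.87 above Ctrl (SE 0.12, edgeR Benjamini-Hochberg adjusted p = 1.32e-11), or 3.66-fold. Between HS and HS+REC it changed by 0.21, short of the FDR limit (edgeR Benjamini-Hochberg adjusted p = 0.187).

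In siLonp1 cells CDKN1A had 9.21, 7.73 and 8.71 CPM in Ctrl, 23.8, 23.0 and 20.6 CPM in HS, and 32.2, 28.2 and 22.5 CPM in HS+REC. HS+REC replicate 3 fell within the HS range and the other two lay above it. HS raised CDKN1A by 1.40 (SE 0.12) and HS+REC stood 1.69 above Ctrl (SE 0.12). From HS to HS+REC it rose by 0.30 (edgeR Benjamini-Hochberg adjusted p = 0.0362), a call that was lost in 4 of 6 fits that left out 1 library: HS siLonp1 replicate 2 or 3, or HS+REC siLonp1 replicate 1 or 2, at 0.16 to 0.31. It was also lost with scaling by library size only (0.26).

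CDKN1B (chr12:12685498-12722369, plus strand, 3 exons), which encodes p27, also stayed high, but changed by less than 2-fold. In scramble it had 23.7, 24.0 and 23.6 CPM in Ctrl, 43.9, 45.5 and 46.4 CPM in HS, and 39.9, 44.3 and 42.8 CPM in HS+REC. The Ctrl libraries were within 1 CPM of each other and all heated libraries were above them. HS raised CDKN1B by 0.93 on the log2 scale (SE 0.06, edgeR Benjamini-Hochberg adjusted p = 2.58e-11), or 1.90-fold, and HS+REC stood 0.83 above Ctrl. In siLonp1 it had 17.3, 18.1 and 19.2 CPM in Ctrl, 31.1, 29.8 and 28.6 CPM in HS, and 27.4, 25.9 and 25.6 CPM in HS+REC, so that the conditions did not overlap. The effects there were 0.71 for HS and 0.54 for HS+REC, both past the FDR limit. From HS to HS+REC CDKN1B fell by 0.18 in siLonp1 (edgeR Benjamini-Hochberg adjusted p = 0.0304). That call was lost without HS siLonp1 replicate 1 or 2 or HS+REC siLonp1 replicate 2 or 3, at -0.18 to -0.15, and when only the groups compared entered the fit (-0.17).

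BTG2 (chr1:203305491-203309602, plus strand, 2 exons), an immediate early gene of the BTG/TOB family, gave the fullest return. Ctrl scramble had 11.7, 10.1 and 12.2 CPM, HS scramble 27.2, 27.7 and 31.2 CPM, and HS+REC scramble 12.9, 11.4 and 12.9 CPM. HS+REC overlapped Ctrl, and HS was above both. HS raised BTG2 by 1.34 on the log2 scale (SE 0.09, edgeR Benjamini-Hochberg adjusted p = 1.77e-11), or 2.53-fold. It then fell by 1.21 (edgeR Benjamini-Hochberg adjusted p = 2.34e-10), and 1.07% of all genes changed by as much between HS and HS+REC. In siLonp1 it had 7.23, 7.96 and 8.10 CPM in Ctrl, 21.1, 23.3 and 22.8 CPM in HS, and 7.71, 8.04 and 6.70 CPM in HS+REC. The rise was 1.53 and the fall 1.58 on the log2 scale, both past 2-fold and the FDR limit. HS+REC did not pass the FDR limit against Ctrl in either arm, at 0.13 in scramble (edgeR Benjamini-Hochberg adjusted p = 0.255) and -0.05 in siLonp1 (edgeR Benjamini-Hochberg adjusted p = 0.689).

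BTG1 (chr12:92140278-92145846, minus strand, 2 exons), the paralog of BTG2, did not share that pulse. In scramble it had 57.5, 55.8 and 56.4 CPM in Ctrl, 59.3, 57.7 and 64.4 CPM in HS, and 74.6, 72.4 and 71.1 CPM in HS+REC. The HS effect was 0.10 in scramble and -0.10 in siLonp1, and neither passed the FDR limit (edgeR Benjamini-Hochberg adjusted p = 0.214 and 0.159). With scaling by library size only, the HS effect in siLonp1 was -0.15 and passed. HS+REC raised it by 0.36 in scramble (SE 0.06, edgeR Benjamini-Hochberg adjusted p = 1.98e-05) and by 0.39 in siLonp1. BTG1 thus rose in the hour in which BTG2 fell.

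TOB1 (chr17:50862223-50867978, minus strand, 2 exons), the third gene of this family, did not pass the FDR limit of the main test in any heat comparison. In scramble it had 49.7, 43.4 and 47.9 CPM in Ctrl, 47.6, 45.9 and 45.3 CPM in HS, and 38.3, 45.04 and 41.3 CPM in HS+REC. HS changed it by -0.02 on the log2 scale (edgeR Benjamini-Hochberg adjusted p = 0.853). HS+REC changed it by -0.18 (edgeR Benjamini-Hochberg adjusted p = 0.0535), and without Ctrl scramble replicate 2 or HS+REC scramble replicate 2 this passed the limit, at -0.23 and -0.24. It also passed with RLE size factors or DESeq2 (-0.19 each), with the likelihood ratio test (-0.18) and with scaling by library size only (-0.26). HS+REC against HS, at -0.16, passed with library size only (-0.21) and without HS+REC scramble replicate 2 (-0.22). Its siLonp1 libraries lay between 58.8 and 71.7 CPM in all 3 conditions.

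MDM2 (chr12:68808177-68845544, plus strand, 11 exons) and SESN1 (chr6:108984309-109094846, minus strand, 10 exons) fell with heat. In scramble MDM2 had 74.5, 69.7 and 75.4 CPM in Ctrl, 56.0, 57.2 and 53.5 CPM in HS, and 48.7, 49.98 and 41.1 CPM in HS+REC, with no overlap between conditions. HS lowered it by 0.40 on the log2 scale (SE 0.08, edgeR Benjamini-Hochberg adjusted p = 0.00026) and HS+REC by 0.65 (edgeR Benjamini-Hochberg adjusted p = 2.77e-07). In siLonp1 it had 88.5, 86.8 and 92.2 CPM in Ctrl, 55.9, 60.5 and 65.6 CPM in HS, and 43.5, 52.1 and 50.5 CPM in HS+REC. The falls there were larger as values, 0.56 in HS and 0.87 in HS+REC. MDM2 fell further from HS to HS+REC, by 0.26 in scramble (edgeR Benjamini-Hochberg adjusted p = 0.0154) and by 0.32 in siLonp1 (edgeR Benjamini-Hochberg adjusted p = 0.00249). The scramble call depended on HS scramble replicate 2 (-0.24 without it) and on HS+REC scramble replicate 3 (-0.17 without it), while the siLonp1 call held in all 6 fits that left out 1 library.

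SESN1 had low levels. In scramble it had 6.40, 6.46 and 7.35 CPM in Ctrl, 4.82, 5.81 and 5.31 CPM in HS, and 4.90, 4.35 and 4.88 CPM in HS+REC. Ctrl lay above both heated groups, which overlapped each other. HS changed it by -0.34 on the log2 scale (SE 0.10, edgeR Benjamini-Hochberg adjusted p = 0.0104), a call that was lost without Ctrl scramble replicate 3 or HS scramble replicate 1, at -0.27 in each. HS+REC changed it by -0.51 (edgeR Benjamini-Hochberg adjusted p = 0.000232). In siLonp1 it had 6.31, 5.88 and 7.10 CPM in Ctrl, 5.63, 5.37 and 5.34 CPM in HS, and 4.45, 3.94 and 4.37 CPM in HS+REC. HS+REC was 0.59 below Ctrl there (edgeR Benjamini-Hochberg adjusted p = 4.46e-05), and HS at -0.24 was short of the limit (edgeR Benjamini-Hochberg adjusted p = 0.0627), passing it without Ctrl siLonp1 replicate 2 (-0.30) and with library size only (-0.29). From HS to HS+REC it fell by 0.36 in siLonp1 (edgeR Benjamini-Hochberg adjusted p = 0.012), a call that was lost without HS+REC siLonp1 replicate 2 (-0.30).

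**Figure D3:**
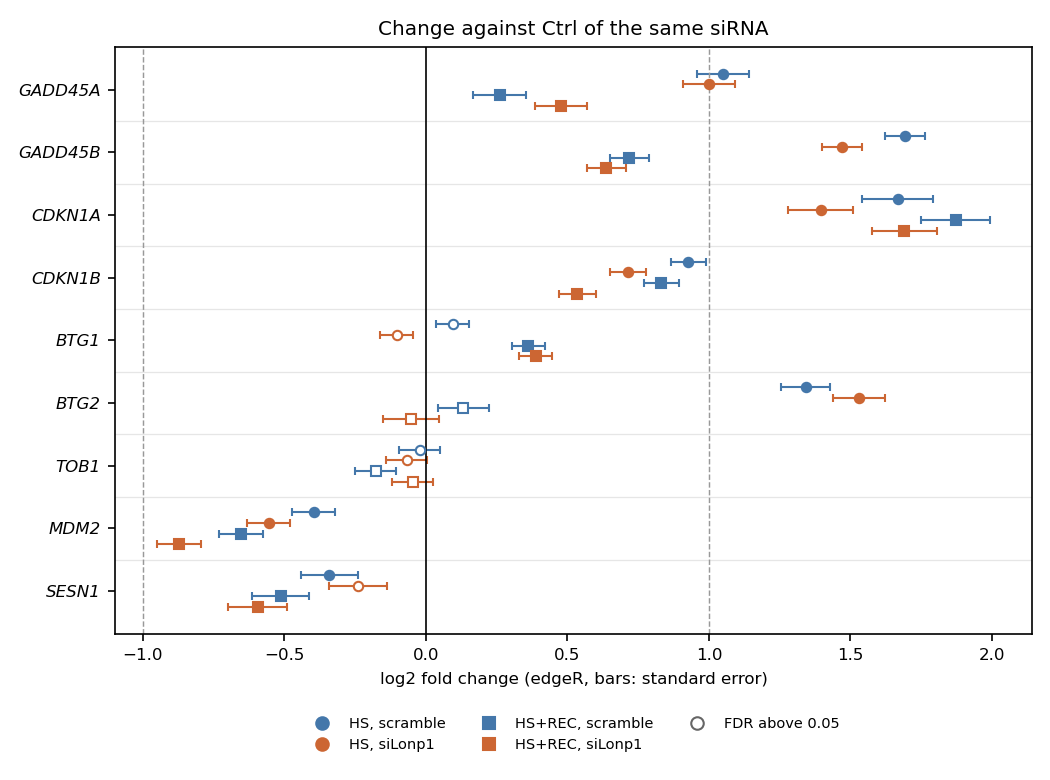
Log2 fold change against Ctrl of the 9 tested genes in HS and HS+REC, for scramble and siLonp1 (bars: standard error of the fit, open symbols: FDR above 0.05). In scramble GADD45B goes from 1.69 in HS to 0.72 in HS+REC and BTG2 from 1.34 to 0.13, while CDKN1A stays at 1.67 and 1.87 and MDM2 goes from -0.40 to -0.65.

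LONP1 silencing changed all of the 9 genes but SESN1 in Ctrl, each by less than 2-fold, and CDKN1A and CDKN1B moved in opposite directions, as did BTG2 against BTG1 and TOB1. CDKN1A, BTG1, TOB1 and GADD45A were higher with siLonp1 in all 3 conditions, while CDKN1B and BTG2 were lower in all 3. With edgeR as with DESeq2, no gene of the 9 was called past 2-fold in Ctrl, HS or HS+REC, where 4.17%, 4.17% and 4.18% of all genes were called in either direction. At an FDR of 0.05 and any fold change, 8 of the 9 passed in Ctrl, 6 raised and 2 lowered, against 49.2% of all genes, 26.3% raised and 22.9% lowered. In HS 6 passed, 4 raised and 2 lowered, against 54.8%, 28.1% raised and 26.7% lowered. In HS+REC 7 passed, 5 raised and 2 lowered, against 54.1%, 26.8% raised and 27.3% lowered. Over all genes, scaling by library size only took the raised share of those past the FDR limit from 53.4% to 39.2% in Ctrl, from 51.3% to 35% in HS and from 49.6% to 37.4% in HS+REC. With no filter on low counts, GADD45G was called as lowered by siLonp1 in Ctrl (edgeR Benjamini-Hochberg adjusted p = 0.000964), from 20 reads in 3 libraries to 1 read in 3. Without Ctrl scramble replicate 1, which held 13 of the 20, the adjusted p was 0.0487 (edgeR Benjamini-Hochberg).

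The CDK inhibitors gave the plainest contrast. In Ctrl, CDKN1A had 4.67, 4.80 and 4.88 CPM in scramble against 9.21, 7.73 and 8.71 CPM in siLonp1, a rise of 0.84 on the log2 scale (SE 0.13, edgeR Benjamini-Hochberg adjusted p = 1.31e-05), or 1.79-fold. CDKN1B had 23.7, 24.0 and 23.6 CPM against 17.3, 18.1 and 19.2 CPM, a fall of 0.39 (SE 0.06, edgeR Benjamini-Hochberg adjusted p = 2.9e-05). Neither pair of groups overlapped, which was also so for 63.0% of all tested genes in Ctrl. In HS the effects were 0.57 for CDKN1A and -0.60 for CDKN1B, and in HS+REC 0.66 and -0.68, all past the FDR limit. CDKN1B in HS+REC was 1.61-fold lower with siLonp1 (edgeR Benjamini-Hochberg adjusted p = 4.17e-09).

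Within a library, the ratio of CDKN1A to CDKN1B reads depends on neither depth nor scaling. Its median was 0.200 in Ctrl scramble and 0.453 in Ctrl siLonp1, 0.329 and 0.767 in HS, and 0.398 and 1.09 in HS+REC. The siLonp1 libraries were above the scramble libraries in each condition. The lowest ratio of Ctrl siLonp1, 0.428, exceeded the highest ratio of HS scramble, 0.366, but not that of HS+REC scramble, 0.457. The 2 transcripts differ in length by little (2117 bases for CDKN1A and 2411 bases for CDKN1B). In HS+REC siLonp1 the 2 genes had nearly equal reads, at ratios of 0.876 to 1.17.

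The BTG/TOB genes were also split. BTG1 had 57.5, 55.8 and 56.4 CPM in Ctrl scramble and 82.2, 81.0 and 91.5 CPM in Ctrl siLonp1, a rise of 0.59 on the log2 scale (SE 0.06, edgeR Benjamini-Hochberg adjusted p = 2.3e-08). In siLonp1 it had 79.3, 78.8 and 79.0 CPM in HS and 109, 108 and 115 CPM in HS+REC, each above every scramble library of its condition. The effect was 0.39 in HS and 0.61 in HS+REC, both past the FDR limit. TOB1 had 60.7, 71.7 and 62.8 CPM in Ctrl siLonp1, 62.7, 63.2 and 60.4 CPM in HS siLonp1 and 65.3, 65.0 and 58.8 CPM in HS+REC siLonp1, again above every scramble library of the condition. It was higher by 0.47, 0.42 and 0.60 in Ctrl, HS and HS+REC, the last at an edgeR adjusted p = 3.44e-07 (Benjamini-Hochberg).

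BTG2 went the other way. It was lower with siLonp1 by -0.54 on the log2 scale in Ctrl (SE 0.09, edgeR Benjamini-Hochberg adjusted p = 5.22e-05), by -0.36 in HS and by -0.73 in HS+REC (edgeR Benjamini-Hochberg adjusted p = 9.03e-07). The siLonp1 and scramble libraries did not overlap in any condition. The ratio of BTG1 to BTG2 reads had a median of 4.89 in Ctrl scramble, 2.08 in HS scramble and 5.80 in HS+REC scramble, and of 11.3, 3.46 and 14.2 in siLonp1. It dropped in HS and rose again in HS+REC in both arms, with siLonp1 libraries above scramble libraries throughout.

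**Figure D4:**
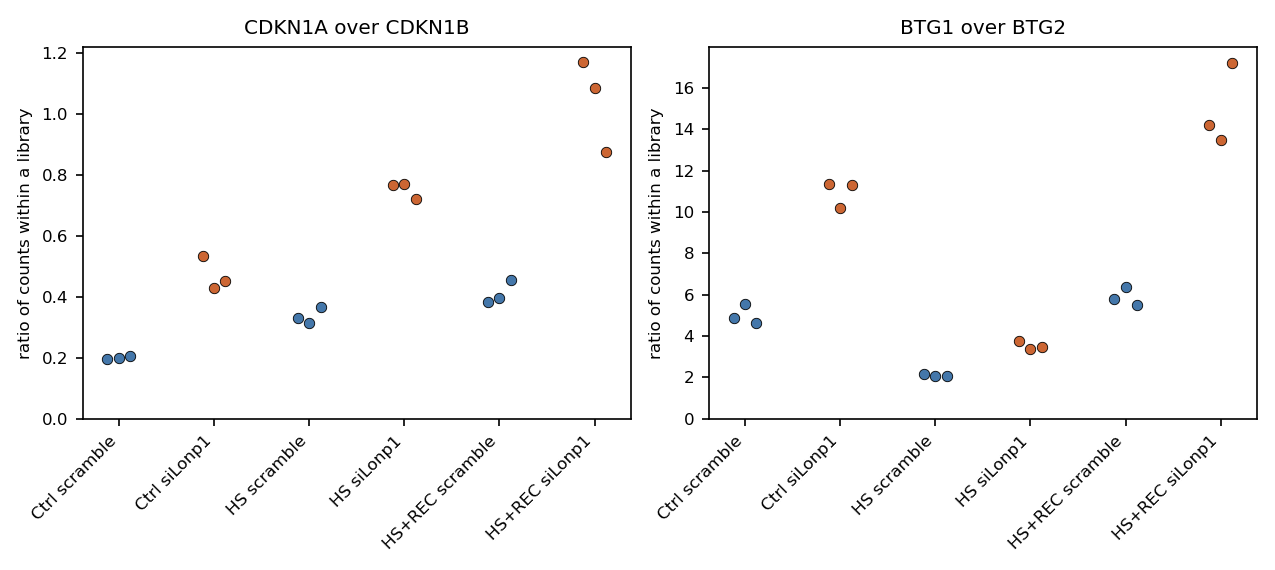
Ratio of counts within each library (points, 3 per group) for pairs of the genes, by group. CDKN1A over CDKN1B goes from a median of 0.200 in Ctrl scramble to 1.09 in HS+REC siLonp1, and BTG1 over BTG2 dips in HS, to 2.08 in scramble and 3.46 in siLonp1.

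With siLonp1, GADD45A was higher by 0.29 on the log2 scale at 37 °C, by 0.24 in HS and by 0.51 after recovery, past the FDR limit in each. The call in Ctrl (edgeR Benjamini-Hochberg adjusted p = 0.012) was lost without Ctrl siLonp1 replicate 3 (0.25). The call in HS (edgeR Benjamini-Hochberg adjusted p = 0.0268) did not hold without HS siLonp1 replicate 1 or 2 or HS scramble replicate 1, at 0.21 to 0.24, and with scaling by library size only (0.15). GADD45B was higher by 0.28 in Ctrl (edgeR Benjamini-Hochberg adjusted p = 0.00188) and by 0.20 in HS+REC (edgeR Benjamini-Hochberg adjusted p = 0.0165). The latter call was lost without HS+REC scramble replicate 2 (0.18) or HS+REC siLonp1 replicate 1 (0.12), with library size only (0.13) and when only the groups compared entered the fit (0.20). In HS the 2 arms overlapped at 191 to 222 CPM, and the effect of 0.06 did not pass (edgeR Benjamini-Hochberg adjusted p = 0.469).

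MDM2 was higher with siLonp1 in Ctrl by 0.28 on the log2 scale (edgeR Benjamini-Hochberg adjusted p = 0.00351). Its libraries there lay between 86.8 and 92.2 CPM against 69.7 to 75.4 CPM in scramble. In HS and HS+REC the arms overlapped, with effects of 0.13 and 0.06 that did not pass the limit. SESN1 did not pass in any condition, with overlapping libraries and effects of -0.07, 0.03 and -0.15 in Ctrl, HS and HS+REC.

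**Figure D5:**
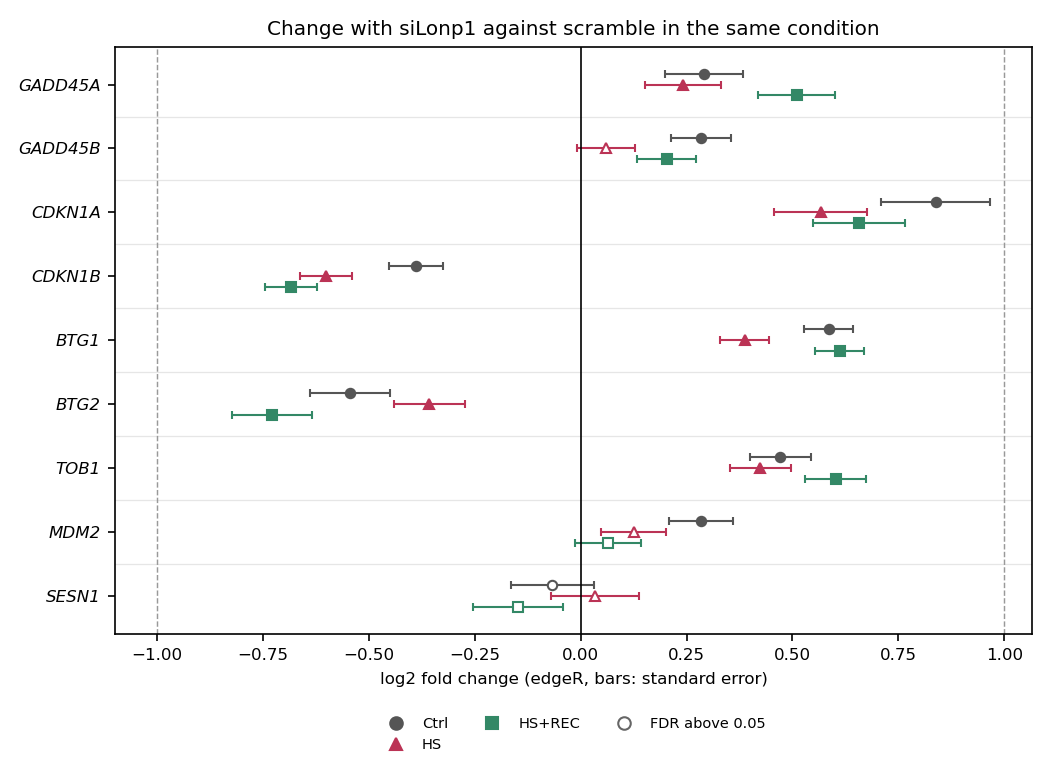
Log2 fold change of siLonp1 against scramble of the 9 tested genes in Ctrl, HS and HS+REC (bars: standard error of the fit, open symbols: FDR above 0.05). CDKN1A, BTG1, TOB1 and GADD45A lie to the right of 0 and CDKN1B and BTG2 to the left in all 3 conditions.

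Whether heat acted differently in the 2 arms was tested with the interaction of siLonp1 and heat. No call resulted at an FDR of 0.05 among the 9 genes with edgeR or with DESeq2, against 1.87% of all genes for HS and 1.58% for HS+REC. The interactions lay between -0.27 and 0.19 on the log2 scale for HS and between -0.30 and 0.22 for HS+REC, with standard errors up to 0.17. The lowest adjusted p was 0.24 for HS and 0.102 for HS+REC (edgeR quasi-likelihood test, Benjamini-Hochberg), the latter for CDKN1B. At an unadjusted p under 0.05 there were 3 genes for HS and 1 for HS+REC. The share of all genes at that limit was not computed, so nothing is read from these counts. GADD45G, tested only with no filter on low counts, had interactions of 3.11 for HS and 3.42 for HS+REC on 1 read in Ctrl siLonp1 (edgeR Benjamini-Hochberg adjusted p = 0.12 and 0.0659). With 1 library left out, they passed the FDR limit in 1 of 12 fits for HS and 5 of 12 for HS+REC. Their values were 5.03 and 5.34 without Ctrl siLonp1 replicate 1, and 2.16 and 2.48 without Ctrl scramble replicate 1. In the latter fit the adjusted p was 0.521 and 0.442 (edgeR Benjamini-Hochberg). Heat effects that differ between the arms by several standard errors can be missed here. The HS+REC interaction of CDKN1B, at -0.30 with an SE of 0.09, did not pass.

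Beside the 10 genes, 12 genes of the same families or with a CDKN name were followed, of which 11 were tested. The CDKN2 genes and CDKN3 among them share a name with CDKN1A and CDKN1B, but not a family. Past the FDR limit, HS raised 7 and lowered 1 in scramble and raised 5 in siLonp1, with a median log2 fold change of 0.35 and 0.20 against -0.01 and 0.00 over all genes. That is 72.7% of the 11 in scramble, against 36.0% of all genes, and 45.5% in siLonp1, near the 42.2% of all genes. HS+REC raised 4 in scramble, and raised 8 and lowered 1 in siLonp1, or 36.4% against 42.3% of all genes and 81.8% against 51.2%. The sestrins split in a way that SESN1 alone does not show. SESN2, a sestrin induced by ATF4 in stressed cells, averaged 11.1, 44.1 and 125 CPM in Ctrl, HS and HS+REC scramble, and 5.48, 39.0 and 113 CPM in siLonp1. It rose by 1.99 in HS and 3.48 in HS+REC in scramble, and by 2.83 and 4.37 in siLonp1. SESN3 rose by 1.09 and 1.61 in scramble and by 1.58 and 1.97 in siLonp1, while SESN1 fell. All these changes of SESN2 and SESN3 were past 2-fold and the FDR limit.

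CDKN2B, which encodes the CDK4/6 inhibitor p15, averaged 31.3, 64.1 and 80.2 CPM in Ctrl, HS and HS+REC scramble. It rose by 1.03 in HS and 1.36 in HS+REC, and by 0.91 and 1.59 in siLonp1, all past the FDR limit. TOB2, the paralog of TOB1, had the pulse that TOB1 lacked, with means of 64.4, 118 and 59.9 CPM in scramble and 78.9, 154.0 and 61.7 CPM in siLonp1. From HS to HS+REC it fell by 0.98 in scramble and by 1.32 in siLonp1, both past the FDR limit. The 2 genes isolated with GADD45A as growth arrest and DNA damage inducible, DDIT3 (CHOP) and PPP1R15A (GADD34), were both called as raised in HS and HS+REC in both arms. DDIT3, a transcription factor of the integrated stress response, rose by 1.02 in HS and 1.64 in HS+REC in scramble. PPP1R15A, a regulatory subunit of the phosphatase that acts on eIF2α, rose by 1.87 and 1.46.

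The CDKs and cyclins that p21 and p27 bind were 11 genes, of which 10 were tested. HS lowered 6 of them past the FDR limit in each arm while the other 4 did not pass, against 17.3% of all genes lowered in scramble and 22.1% in siLonp1. HS+REC lowered 6 and raised 1 in scramble and lowered 7 and raised 1 in siLonp1, against 20.5% and 26.6% of all genes lowered. The median HS effect over the 10 was -0.23 on the log2 scale in scramble and -0.35 in siLonp1, against -0.01 and 0.00 over all genes. CCNE2, cyclin E2 of the G1/S transition, fell by 1.53 in HS and by 1.38 in HS+REC in siLonp1, from 44.9 CPM in Ctrl to 15.6 and 17.2 CPM. In scramble it fell by 0.94 and by 0.86. With siLonp1 alone, 5 of the 10 were raised and 1 lowered in Ctrl, against 26.3% and 22.9% of all genes.

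Of 13 tested genes for CCR4-NOT subunits and partners, HS raised 3 and lowered 2 past the FDR limit in scramble and raised 2 and lowered 3 in siLonp1. That is 38.5% in each arm, near the 36.0% and 42.2% of all genes. CNOT4, a ubiquitin ligase that associates with that complex, was called in each arm, at 1.01 and 1.09. It averaged 34.0, 68.2 and 41.4 CPM in Ctrl, HS and HS+REC scramble. Of 15 DNA damage checkpoint genes, HS lowered 3 in scramble, and lowered 5 and raised 1 in siLonp1, or 20% and 40% past the FDR limit against 36.0% and 42.2% of all genes. LONP1 silencing lowered 6, 10 and 11 of the 15 past the FDR limit in Ctrl, HS and HS+REC, all by less than 2-fold, against 22.9%, 26.7% and 27.3% of all genes, and the others did not pass. The medians were -0.15, -0.22 and -0.26 on the log2 scale.

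Across the 18 libraries, the genes whose log2 CPM followed each called gene most closely were listed as a description, since libraries of a group share their treatment. For GADD45B they were the immediate early genes EGR2 (Pearson r 0.987), DUSP1 (0.986) and EGR1 (0.986). For GADD45A they were IRF2BPL (0.987), IER2 (0.976) and ZNF461 (0.965). CDKN1A was followed most closely by CDC42EP3 and SAT1 (0.983 each) and CCL20 (0.982), and BTG2 by FBXW7 (0.958), R3HCC1L (0.946) and STIL (0.946). GADD45A and GADD45B correlated with each other at 0.936, and GADD45A with CDKN1A at 0.721.

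Reads were counted with a setting for strand that is not given in the sources used here. Opposite-strand genes of the count table overlap CDKN1B (GPR19), TOB1 (TOB1-AS1), MDM2 (CPM) and LONP1 (RPL36), and reads from the shared stretches may be split or mixed there.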

How the data were processed

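RNA was extracted from SW620 cells, and stranded TruSeq libraries were sequenced paired-end on a NovaSeq. The authors aligned reads with STAR 2.7.3a to hg38 and deposited raw counts per gene, made with featureCounts on UCSC genes in R 3.6.3. Strand, multimapping and duplicate settings and the annotation release are not given in the sources used here. No molecular identifiers are described, so intervals cover counting error only.

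From the deposited counts, 1 edgeR 4.0.16 model (R 4.3.3) with a mean for each of the 6 groups was fitted over 18 libraries, with TMM scaling (factors 0.934 to 1.06) and genes kept at CPM above 1 in at least 3 libraries. The fit gave 11 contrasts by the quasi-likelihood test, adjusted by Benjamini-Hochberg over 12832 genes. A gene was called at an FDR up to 0.05 with more than a 2-fold change. The thresholds and filter are those of the study, and the common biological coefficient of variation was 0.0658. The fit was tested on simulated counts. CPM values are scaled by TMM. Per-kilobase levels divide CPM by the length of the canonical GENCODE v44 transcript, and gene positions come from GENCODE v44 on hg38. Promoters come from RefSeq on GRCh38.p14, with bases after the start left out. Chi-square per degree of freedom between replicates ran from 3.48 to 25.8, so no library was a copy of another. Alternatives were RLE factors, library size only, other filters, a likelihood ratio test, a replicate block, a prior count of 2, only the groups compared, an FDR of 0.01, DESeq2 1.42.0 and leaving out each library, and for GADD45G, added after seeing the data, leaving out each library with no filter.

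The genes, the gene lists and the tests were chosen with earlier results of these data known. Named in the text were all 10 genes, LONP1, up to 6 called genes per list and comparison, and the 3 genes most correlated with each gene called in a heat comparison. One gene list and the results that rest on it are not reported here.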

Additional observations from a re-analysis of the deposited data

Results flagged for a closer look

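SESN2, a relative of SESN1, responded to heat differently in the 2 arms by the test of the interaction itself. The HS effect was larger in siLonp1 than in scramble by 0.84 on the log2 scale (SE 0.16, edgeR Benjamini-Hochberg adjusted p = 0.00537), and the HS+REC effect by 0.89 (SE 0.15, edgeR Benjamini-Hochberg adjusted p = 0.00374). SESN2 was lower with siLonp1 in Ctrl by -1.02 and differed by -0.18 in HS and -0.14 in HS+REC, so the arms were farthest apart at 37 °C.

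LONP1 itself differed between arms in its response to heat. The interaction was -0.76 for HS (SE 0.11, edgeR Benjamini-Hochberg adjusted p = 0.000468) and 0.43 for HS+REC (SE 0.10, edgeR Benjamini-Hochberg adjusted p = 0.0321). In siLonp1 its level averaged 20.4 CPM in Ctrl, 11.7 CPM in HS and 27.2 CPM in HS+REC, while scramble averaged 220.8, 214 and 218 CPM.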

How the results depend on the processing

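Of 891 log2 fold changes under other settings, 872 kept their direction and their side of the threshold, and of 702 with 1 library left out, 660 did. With no filter on low counts, which brings in GADD45G, 5 genes were called in the HS effect in siLonp1 (3 otherwise), 2 in the HS+REC effect in scramble and 2 in siLonp1 (1 otherwise in each), and 1 in the siLonp1 effect in Ctrl (0 otherwise). With scaling by library size only, 2 genes were called in HS+REC against HS in scramble (1 otherwise). At an FDR of 0.01, 5 genes passed in HS+REC against HS in siLonp1 (8 otherwise).

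With 1 library left out, calls ranged from 3 to 4 in the HS effect in siLonp1 and from 1 to 2 in HS+REC against HS in scramble. Genes past the FDR limit in HS+REC against HS in siLonp1 ranged from 5 (without HS+REC siLonp1 replicate 2) to 7.

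No value past the FDR limit turned its direction in any of these settings. Those that did were near 0. With CPM above 1 in all libraries, TOB1 in HS scramble was 0.0028. With library size only, TOB1 in HS+REC against HS in siLonp1 was -0.011, GADD45B with siLonp1 in HS -0.037, SESN1 with siLonp1 in HS -0.063 and MDM2 with siLonp1 in HS+REC -0.0062. With no filter, TOB1 in HS+REC against HS in siLonp1 was -0.0032. With 1 library left out, TOB1 ranged from -0.076 to 0.021 for HS in scramble, from -0.12 to 0.0079 for HS in siLonp1, from -0.094 to 0.029 for HS+REC in siLonp1, from -0.017 to 0.070 for HS+REC against HS in siLonp1 and from -0.094 to 0.029 for the HS interaction. BTG2 ranged from -0.10 to 0.022 for HS+REC in siLonp1. With siLonp1 in HS, GADD45B ranged from -0.00059 to 0.10 and SESN1 from -0.035 to 0.11. MDM2 with siLonp1 in HS+REC ranged from -0.019 to 0.14, and the HS+REC interaction of BTG1 from -0.0070 to 0.083. The cause was not tested.

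The main model treated the libraries as unpaired. Deviations of same-numbered libraries correlated from -0.379 to 0.462, over 0.1 in 6 of 27 pairs. For HS+REC against HS they were 0.275, -0.161 and 0.132 in scramble and 0.262, 0.0904 and 0.124 in siLonp1. Whether replicate numbers pair the samples cannot be told from this, since libraries of different number were not compared. A replicate block changed 0 of 99 calls of these genes, and over all genes moved those past the FDR limit from 4615 to 4507 for HS in scramble and from 240 to 180 for the HS interaction. Depth limits GADD45G, with 0 to 64 reads a library. Leaving out each library with no filter on low counts, an alternative added after seeing the data, turned the direction of GADD45G in 3 fits, none past the FDR limit. Without HS+REC scramble replicate 3 it was -0.18 (0.30 otherwise) for HS+REC against HS in scramble and 0.14 (-0.34 otherwise) for siLonp1 in HS+REC, which was 0.041 without HS+REC siLonp1 replicate 3. Of these fits 8 gained a call. They were the HS interaction without HS scramble replicate 3 (adjusted p = 0.0358), the HS+REC interaction without Ctrl scramble replicate 2 (0.0353) or 3 (0.0245), HS+REC scramble replicate 2 (0.0359) or 3 (0.00765) or HS+REC siLonp1 replicate 3 (0.00815), siLonp1 in HS without HS scramble replicate 1 (-0.84, 0.0467), and HS+REC against HS in siLonp1 without HS+REC siLonp1 replicate 3 (0.0132), all by edgeR with Benjamini-Hochberg adjustment for GADD45G.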

Other observations

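In HS+REC, replicates 1 and 3 of each arm stood at an end of their group for several of these genes. With 3 libraries in a group only the middle one is not at an end, so no library is set apart by this. HS+REC siLonp1 replicate 3 was the lowest of its group for GADD45A (62.9 CPM), CDKN1A (22.5 CPM), BTG2 (6.70 CPM), TOB1 (58.8 CPM) and GADD45G (11 reads). Replicate 1 of that group was the highest for GADD45A (85.4 CPM), GADD45B (134 CPM), CDKN1A (32.2 CPM), TOB1 (65.3 CPM) and GADD45G (42 reads). HS+REC scramble replicate 3 was the highest of its group for GADD45A (57.7 CPM), GADD45B (109 CPM), CDKN1A (19.6 CPM) and GADD45G (64 reads). Replicate 1 there was the lowest for GADD45A (45.02 CPM), CDKN1A (15.3 CPM), TOB1 (38.3 CPM) and GADD45G (19 reads). The ratio of GADD45B to CDKN1A reads within a library had a median of 13.2 in Ctrl scramble, 14.5 in HS scramble and 5.79 in HS+REC scramble, and of 8.91, 9.65 and 4.16 in siLonp1.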
